A study of Drosophila melanogaster with 18 samples.

Results

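The Cpr genes of Drosophila melanogaster encode cuticle proteins and carry the place of the gene on the polytene chromosome map in their symbol. All genes whose symbol starts with Cpr and a digit were taken, except those whose symbol starts with Cpr49A or Cpr47E. A probe set, the group of short probes that reads 1 transcript on the array, had to be annotated to 1 gene. A gene was tested when its signal reached log2 6 on at least 3 of the 18 arrays. Of 51 Cpr genes with such a probe set, 40 were tested, among 8211 genes tested in all. They came from 27 map positions, of which 5 held 3 or more tested genes and 19 held 1. Of the 40 genes, 24 lay on chromosome arm 3L, and 4 each on X, 2L, 2R and 3R.

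The insect cuticle is a layered coat of chitin fibres and protein that the epidermis secretes at its outer face and that also lines the trachea, foregut and hindgut. Cpr proteins carry the Rebers and Riddiford domain, which binds chitin. Larvae shed this coat and lay down a new one at each moult, and pulses of the steroid hormone ecdysone time the secretion, so that sets of cuticle protein genes are transcribed in bursts around a moult. No role beyond this shared one is given here for single Cpr genes.

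RNA of whole first-instar larvae, raised at 25 °C and frozen at about 48 h after egg laying, was hybridised to 1-colour Affymetrix arrays. Each array stands for a pool of 200 larvae. Nothing in the labels says that the pools came from separate cultures, so p-values measure only the spread between these pools. The groups were HP1a mutants carrying the alleles HP1a04/HP1a05 (3 arrays), larvae labelled HP1a04 PofD119/HP1a05 PofD119 (3 arrays, called the HP1a Pof-labelled arrays below), Setdb1 mutant larvae labelled Setdb110.1/ Setdb110.1 (3 arrays), Su(var)3-9 mutants with the alleles evo and 06 (3 arrays) and wildtype larvae (6 arrays). HP1a is a chromodomain protein that binds histone H3 methylated at lysine 9, Setdb1 and Su(var)3-9 are enzymes that place this methylation, and Pof binds genes of chromosome 4. In whole larvae, fewer cells of a type and less RNA per cell cannot be told apart.

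The gene of HP1a averaged 9.48 ± 0.07 in HP1a mutants and 9.53 ± 0.08 on the HP1a Pof-labelled arrays, against 10.20 ± 0.05 in wildtype (log2 signal, mean ± SD). Pof averaged 8.32 ± 0.29 on the HP1a Pof-labelled arrays, against 7.49 in wildtype, a rise of 0.83 (adjusted p = 0.00104) that goes against the label. The position of the probes relative to the Pof lesion is not known here. The genes Setdb1 and Su(var)3-9 were not analysed here. Array C of the Su(var)3-9 mutant stood apart: Lsp2, a storage protein gene of the third-instar fat body, read 11.57 there, against 5.86 and 5.92 on arrays A and B of that group. Fbp2, another fat body gene, read 11.15 on array C. The counts over Cpr genes and lists in that group are therefore given with and without array C, as are the changes it moves most. A second measure that moved with the groups was the 18S ribosomal RNA control, at 9.39 ± 0.20 in HP1a mutants, 9.81 ± 0.18 on the HP1a Pof-labelled arrays, 9.92 ± 1.10 in Setdb1 mutant larvae and 10.10 ± 0.47 in Su(var)3-9 mutants, against 12.30 ± 0.09 in wildtype. Its part in the results below was not tested.

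Most Cpr genes were higher in each mutant group than in wildtype. Every change below is a difference of mean log2 signals, mutant minus wildtype, so that 1 is a doubling, and a gene is called when limma's p adjusted over all 8211 genes was under 0.05. In HP1a mutants 28 of 40 Cpr genes were called higher, where 23.5% of all tested genes were, and 3 were called lower, where 35.6% were. The median Cpr gene changed by 1.80 (quartiles 0.62 and 2.63), against -0.06 for the median of all tested genes. On the HP1a Pof-labelled arrays 24 were called higher and 4 lower, where 25.0% and 35.8% of all tested genes were, and the median Cpr change was 1.47, against -0.05 over all genes.

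In Setdb1 mutant larvae 29 Cpr genes were called higher and 3 lower, where 17.3% and 35.2% of all tested genes were, with a median of 1.74, against -0.11 over all genes. In Su(var)3-9 mutants 31 were called higher and 2 lower, where 16.3% and 47.6% of all tested genes were, with a median of 1.97, against -0.22 over all genes. Without array C the Su(var)3-9 counts were 31 higher and 1 lower: 32 of the 33 calls were kept, Cpr78E being the exception, and no called change moved by more than 0.30. With array C left out before the filter, Cpr78Ca and Cpr92F were no longer tested, and the counts were 29 higher and 1 lower of 38. For the fits without array C, here and in the lists below, no share over all tested genes is given. All 4 comparisons used the same wildtype arrays, so their counts are not independent of each other. With arrays centred on their median gene, 31 Cpr genes were called higher in HP1a mutants, 24 on the HP1a Pof-labelled arrays, 29 in Setdb1 mutant larvae and 34 in Su(var)3-9 mutants. The share of all tested genes called with centred arrays is not given here, so these counts stand without it. The filter touches these counts: Cpr65Aw, Cpr78Ca, Cpr92F and Cpr97Eb had no wildtype array at log2 6 and entered through mutant arrays, while Cpr73D reached log2 6 only on 3 wildtype arrays. Cpr67Fa2 and Cpr64Ac reached it on 1 and 2 wildtype arrays, so they too needed mutant arrays to enter.

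**Figure D1:**
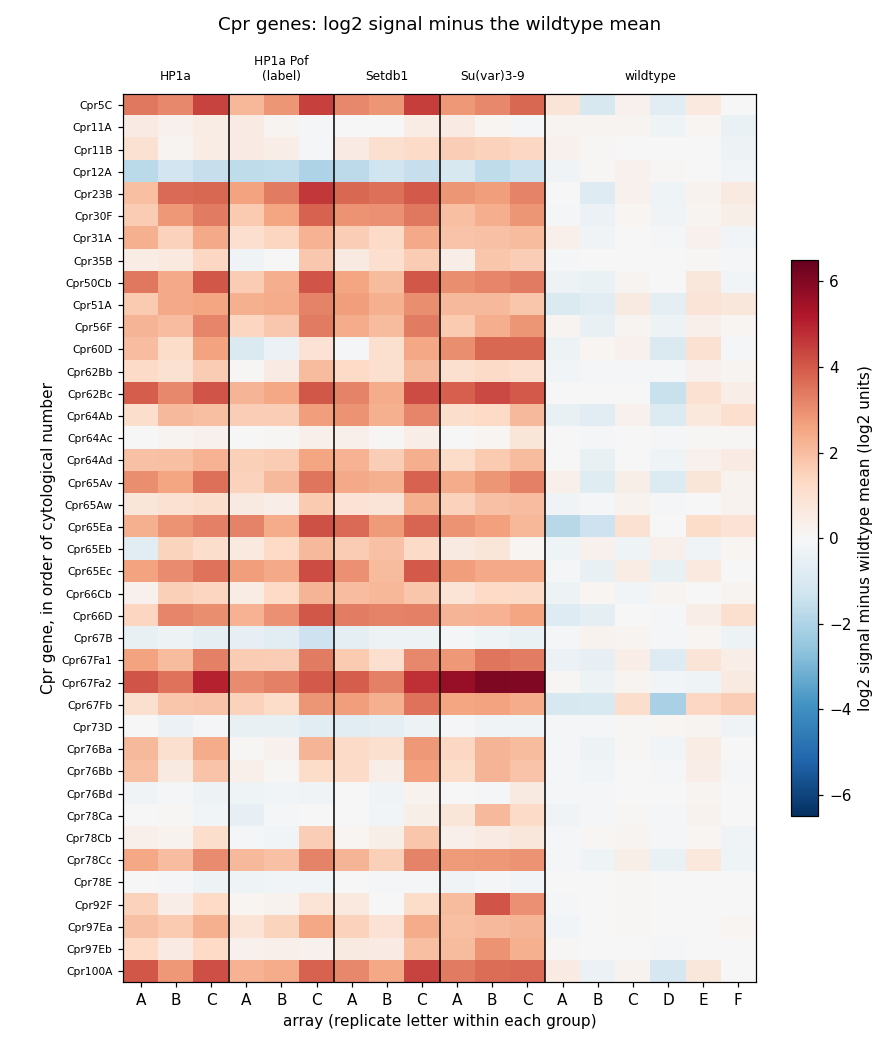
Log2 signal minus the wildtype mean for each of the 40 Cpr genes (rows, by map position) on each of the 18 arrays (columns, mutant groups first and wildtype last). Most rows are above the wildtype mean on all 12 mutant arrays, and the rows of Cpr12A, Cpr67B and, by little, Cpr78E are below it.

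**Figure D2:**
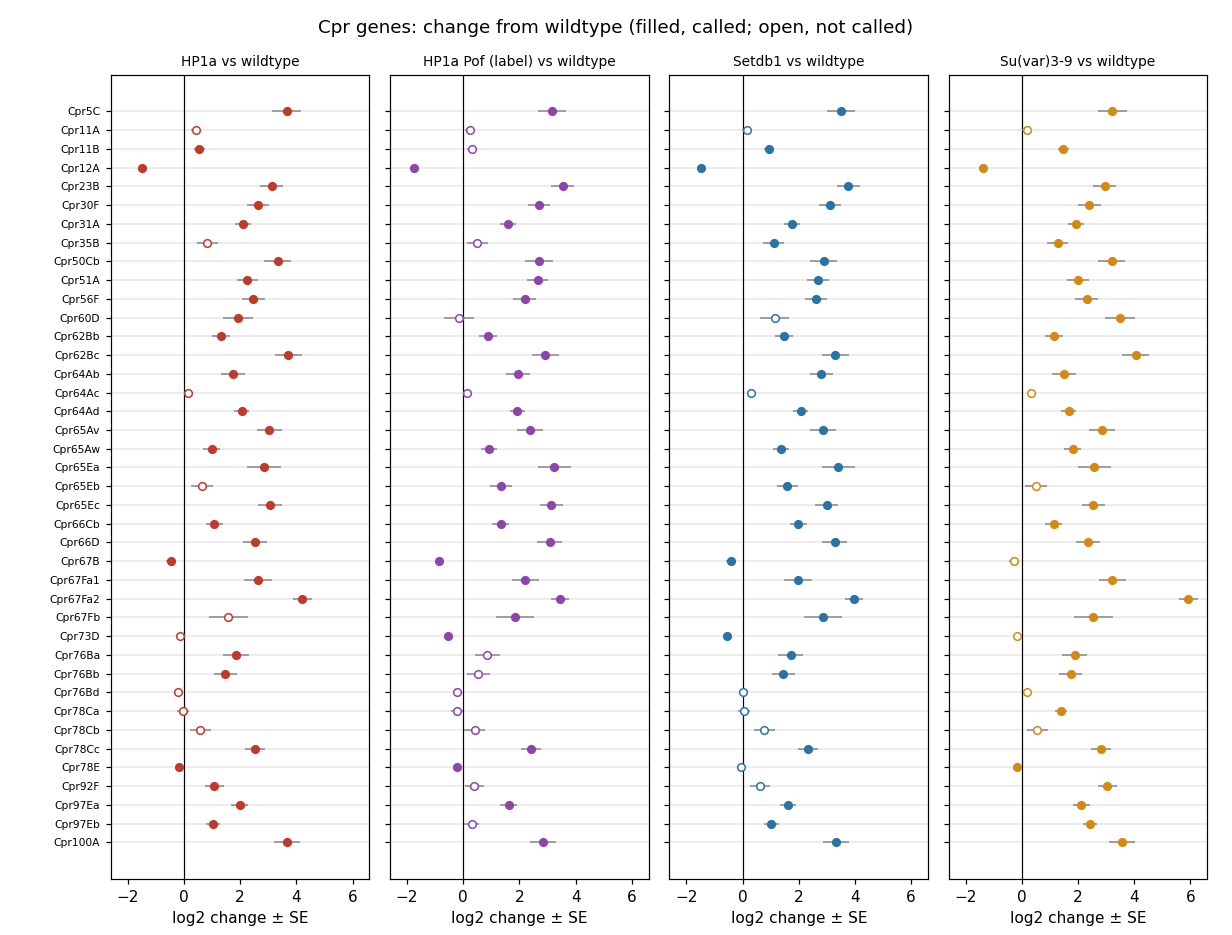
Log2 change ± SE of each Cpr gene against wildtype, with 1 panel for each mutant group; filled points were called by limma at an adjusted p under 0.05 and open points were not. The points reach from -1.48 to 4.21 in HP1a mutants and from -1.38 to 5.93 in Su(var)3-9 mutants.

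At the edge of the filter, Cpr78Ca and Cpr92F reached log2 6 on 3 arrays, all of the Su(var)3-9 mutant, while Cpr65Au reached it on 2 arrays and Cpr92A on 1. The other 9 untested genes, Cpr30B, Cpr50Ca, Cpr62Ba, Cpr64Aa, Cpr65Az, Cpr72Ea, Cpr72Eb, Cpr72Ec and Cpr76Bc, reached it on none. All 3 genes at 72E were therefore outside the test.

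Arrays of 1 group differed more over the median Cpr gene than over the median of all tested genes. The median SD of a Cpr gene was 0.504 in HP1a mutants, 0.791 on the HP1a Pof-labelled arrays, 0.571 in Setdb1 mutant larvae, 0.284 in Su(var)3-9 mutants and 0.282 in wildtype. Over all tested genes the median SD was 0.151 in HP1a mutants, 0.110 on the HP1a Pof-labelled arrays, 0.152 in Setdb1 mutant larvae, 0.192 in Su(var)3-9 mutants and 0.10 over the wildtype arrays. The median over the 40 genes of the log2 signal minus the wildtype mean was 1.57, 1.53 and 2.12 on HP1a arrays A, B and C. It was 0.76, 1.29 and 2.24 on the HP1a Pof-labelled arrays, 1.64, 1.16 and 2.48 on the Setdb1 arrays and 1.78, 2.16 and 2.09 on the Su(var)3-9 arrays. In wildtype it lay between -0.16 and 0.27, so that all 12 mutant arrays were above all 6 wildtype arrays. Array C was the highest of its group in the first 3 mutant groups, where 35, 34 and 36 of the 40 genes were above their own group's mean on it, and not in the Su(var)3-9 mutant. In wildtype, array E had 37 genes and array C had 34 above the wildtype mean, while array D had 9.

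The genes thus tended to be high or low together within a group. After the group means were taken off, the median correlation of 2 Cpr genes over the 18 arrays was 0.449 and 78.6% of the 780 pairs were above 0. The points share arrays and scaling, and no such value is given for other genes. These values are therefore a description, and whether they are particular to Cpr genes was not tested.

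**Figure D3:**
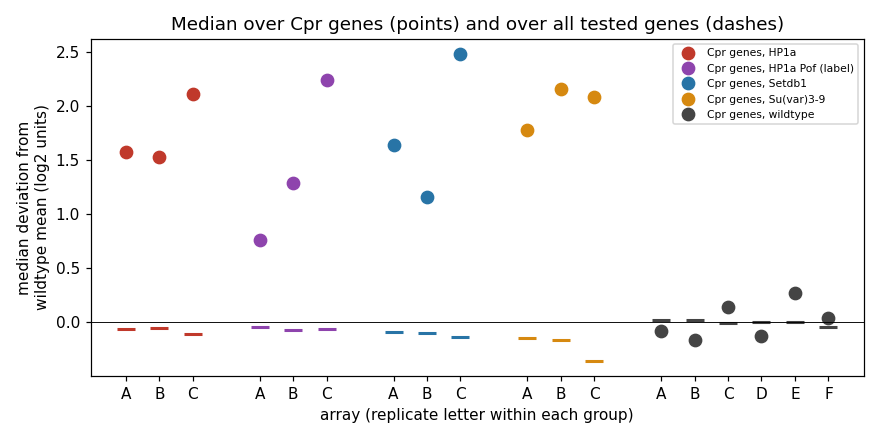
Median over the 40 Cpr genes of the log2 signal minus the wildtype mean on each array (points), with the same median over all tested genes (dashes), mutant groups left of wildtype. The mutant arrays run from 0.76 to 2.48 and the wildtype arrays from -0.16 to 0.27.

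At 67F, where Cpr67Fa1, Cpr67Fa2 and Cpr67Fb lie next to each other, the largest rise of any Cpr gene was measured. From here on values of a mutant group are log2 signals of arrays A, B and C in that order, and wildtype is given by its lowest, median and highest array. Cpr67Fa2 read 9.87, 9.32 and 10.78 in HP1a mutants, 8.84, 9.05 and 9.77 on the HP1a Pof-labelled arrays, 9.70, 9.04 and 10.50 in Setdb1 mutant larvae and 11.45, 11.86 and 11.81 in Su(var)3-9 mutants, against 5.43, 5.72 and 6.38 in wildtype. Every mutant array was above the highest wildtype array, and the 3 Su(var)3-9 arrays were the highest of all. Only 1 wildtype array reached log2 6, so Cpr67Fa2 passed the filter through mutant arrays. The changes were 4.21 ± 0.33 (SE, adjusted p = 3.32e-08) in HP1a mutants, 3.44 (2.21e-07) on the HP1a Pof-labelled arrays, 3.97 (1.13e-07) in Setdb1 mutant larvae and 5.93 (1.15e-09) in Su(var)3-9 mutants.

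Cpr67Fa1 read 10.04, 9.49 and 10.72 in HP1a mutants and 10.25, 10.94 and 10.79 in Su(var)3-9 mutants, against 6.61, 7.48 and 8.27 in wildtype. It rose by 2.64 ± 0.49 in HP1a mutants, by 2.21 on the HP1a Pof-labelled arrays, by 1.97 in Setdb1 mutant larvae and by 3.22 in Su(var)3-9 mutants, with no overlap between mutant and wildtype arrays. The array holds a further probe set annotated to both Cpr67Fa1 and Cpr67Fa2, so their separate signals are uncertain. That shared probe set read 12.24, 11.83 and 12.79 in HP1a mutants and 12.66, 13.06 and 13.08 in Su(var)3-9 mutants, with a wildtype range of 8.26 to 10.40. On it array C of the HP1a mutants and array C of the HP1a Pof-labelled arrays (12.77) were above Su(var)3-9 array A, unlike on the probe set of Cpr67Fa2 alone.

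Cpr67Fb was the most scattered Cpr gene in wildtype, where arrays A to F read 6.02, 6.07, 8.21, 4.97, 8.39 and 8.64. It read 8.09, 8.86 and 8.93 in HP1a mutants, 8.54, 8.23 and 9.93 on the HP1a Pof-labelled arrays, 9.75, 9.38 and 10.58 in Setdb1 mutant larvae and 9.63, 9.68 and 9.48 in Su(var)3-9 mutants. The Setdb1 and Su(var)3-9 arrays were all above wildtype, and the other mutant arrays overlapped it. It rose by 2.85 in Setdb1 mutant larvae (adjusted p = 0.00246) and by 2.54 in Su(var)3-9 mutants (adjusted p = 0.00413). The difference of 1.58 ± 0.68 in HP1a mutants was not called (adjusted p = 0.0576), but with the array letter as a replicate block it was 1.86 (adjusted p = 0.00239), and it was called without wildtype C, E or F. The rise of 1.85 on the HP1a Pof-labelled arrays (adjusted p = 0.0278) lost its call without array C of that group (1.33, adjusted p = 0.155), wildtype A (1.64, 0.0542) or wildtype B (1.65, 0.0548).

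At 65E, another uninterrupted run of 3 Cpr genes, Cpr65Ea and Cpr65Ec rose in all 4 mutant groups and Cpr65Eb in 2 of them. Cpr65Ea read 11.31, 11.91 and 12.26 in HP1a mutants, 12.19, 11.37 and 13.10 on the HP1a Pof-labelled arrays, 12.64, 11.75 and 12.77 in Setdb1 mutant larvae and 11.89, 11.65 and 11.13 in Su(var)3-9 mutants, against 7.18, 9.46 and 10.16 in wildtype. All mutant arrays were above the highest wildtype array, although wildtype itself ranged widely. The changes were 2.85 ± 0.59 in HP1a mutants, 3.24 on the HP1a Pof-labelled arrays, 3.41 in Setdb1 mutant larvae and 2.58 in Su(var)3-9 mutants. Those of Cpr65Ec were 3.06 ± 0.41 in HP1a mutants, 3.12 on the HP1a Pof-labelled arrays, 3.00 in Setdb1 mutant larvae and 2.54 in Su(var)3-9 mutants.

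Cpr65Eb read 7.78, 9.88 and 9.60 in HP1a mutants, 9.08, 9.74 and 10.58 on the HP1a Pof-labelled arrays, 10.10, 10.34 and 9.69 in Setdb1 mutant larvae and 9.02, 9.24 and 8.57 in Su(var)3-9 mutants, against 8.18, 8.39 and 8.78 in wildtype. HP1a array A was below every wildtype array while B and C were above. The rise was called in Setdb1 mutant larvae (1.60, adjusted p = 0.0024) and on the HP1a Pof-labelled arrays (1.35, adjusted p = 0.00604), where it lost its call without array C (0.96, adjusted p = 0.058). It was not called in Su(var)3-9 mutants (0.50, adjusted p = 0.266) or in HP1a mutants (0.64 ± 0.38, adjusted p = 0.162), though without HP1a array A it was 1.29 (adjusted p = 0.00233).

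At 65A Cpr genes are mixed with other cuticle genes: its 7 Cpr genes are interleaved with 11 other genes, 9 of them Lcp65A larval cuticle protein genes. Cpr65Av and Cpr65Aw were tested and both were called higher in all 4 groups. Cpr65Av rose by 3.04 in HP1a mutants, 2.36 on the HP1a Pof-labelled arrays, 2.87 in Setdb1 mutant larvae and 2.86 in Su(var)3-9 mutants. Cpr65Aw rose by 0.98 in HP1a mutants, 0.92 on the HP1a Pof-labelled arrays, 1.37 in Setdb1 mutant larvae and 1.81 in Su(var)3-9 mutants, with all wildtype arrays under log2 6. It entered the test through mutant arrays, so these rises are a description. Its rise on the HP1a Pof-labelled arrays was 0.52 (adjusted p = 0.135) without array C.

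At 62B, Cpr62Bc read 10.97, 10.17 and 11.12 in HP1a mutants, 9.26, 9.58 and 11.06 on the HP1a Pof-labelled arrays, 10.26, 9.47 and 11.30 in Setdb1 mutant larvae and 10.92, 11.35 and 11.03 in Su(var)3-9 mutants, against 5.61, 7.06 and 8.01 in wildtype. Mutant and wildtype arrays did not overlap in any group. The rises were 3.72 ± 0.48 (adjusted p = 7.42e-06) in HP1a mutants, 2.93 on the HP1a Pof-labelled arrays, 3.30 in Setdb1 mutant larvae and 4.06 (adjusted p = 2.79e-06) in Su(var)3-9 mutants. Its neighbour Cpr62Bb rose by 1.31 in HP1a mutants, 0.88 on the HP1a Pof-labelled arrays, 1.48 in Setdb1 mutant larvae and 1.14 in Su(var)3-9 mutants. Its rise on the HP1a Pof-labelled arrays, where array C read 9.23 and the others 7.27 and 7.69, was 0.30 without array C (adjusted p = 0.282).

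At 64A, Cpr64Ab and Cpr64Ad rose in all 4 mutant groups and Cpr64Ac was called in none. Cpr64Ab read 9.70, 10.65 and 10.51 in HP1a mutants, 10.12, 10.12 and 11.24 on the HP1a Pof-labelled arrays, 11.46, 10.85 and 11.72 in Setdb1 mutant larvae and 9.66, 9.84 and 10.64 in Su(var)3-9 mutants, against 7.64, 8.44 and 9.64 in wildtype. It rose by 1.75 ± 0.42 in HP1a mutants, 1.96 on the HP1a Pof-labelled arrays, 2.80 in Setdb1 mutant larvae and 1.51 in Su(var)3-9 mutants, and all mutant arrays were above the wildtype ones. Cpr64Ad rose by 2.05 ± 0.26 in HP1a mutants, 1.92 on the HP1a Pof-labelled arrays, 2.07 in Setdb1 mutant larvae and 1.66 in Su(var)3-9 mutants. Cpr64Ac stayed between 5.94 and 6.76 on the mutant arrays, against 5.89 to 6.02 in wildtype, and was called in no group (0.14 in HP1a mutants, 0.32 with adjusted p = 0.0525 in Su(var)3-9 mutants). Its difference in Su(var)3-9 mutants was called without array A (0.46, adjusted p = 0.0125) or array B (0.42, 0.0281), but it was 0.07 (0.553) without array C, which alone read 6.76. That in Setdb1 mutant larvae was called without array B (0.38, 0.0493).

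**Figure D4:**
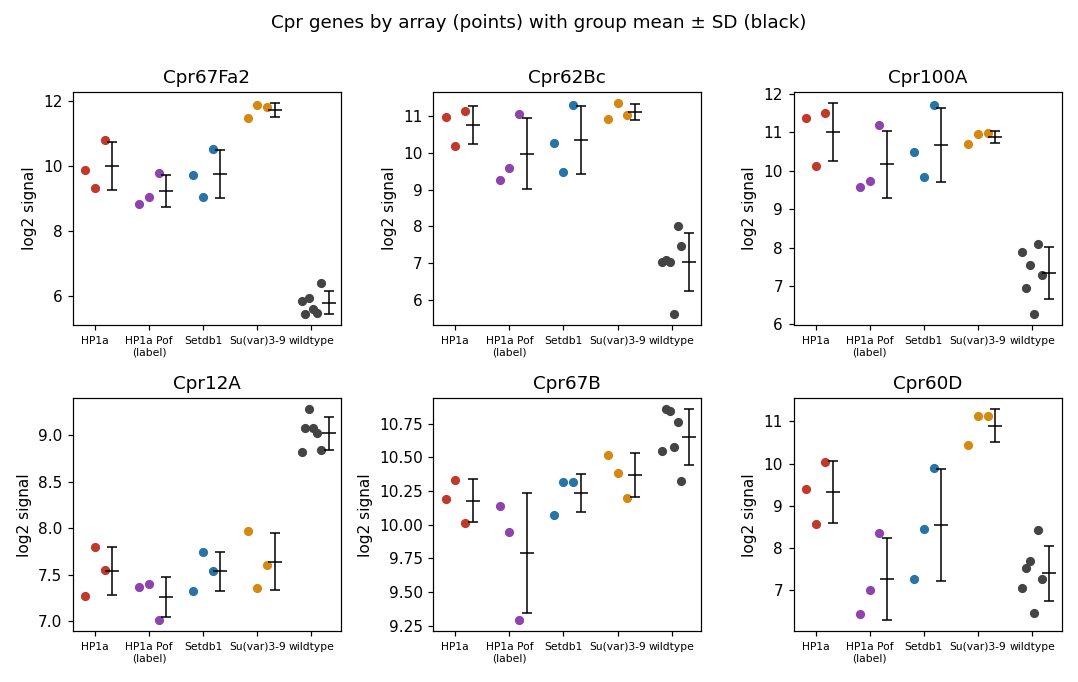
Log2 signal of 6 Cpr genes by array with mean ± SD per group, mutant groups left of wildtype. Cpr67Fa2, Cpr62Bc and Cpr100A are higher on all mutant arrays than on any wildtype array, Cpr12A is lower on all of them, Cpr67B is lower with overlap, and Cpr60D differs between the mutant groups.

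At 76B, Cpr76Ba and Cpr76Bb were called higher in 3 mutant groups and Cpr76Bd in none. Cpr76Ba read 8.30, 7.21 and 8.57 in HP1a mutants, 6.28, 6.45 and 8.39 on the HP1a Pof-labelled arrays, 7.44, 7.22 and 9.01 in Setdb1 mutant larvae and 7.54, 8.39 and 8.23 in Su(var)3-9 mutants, against 5.83, 6.17 and 6.65 in wildtype. In this gene only the HP1a Pof-labelled arrays overlapped wildtype, by arrays A and B. It rose by 1.85 ± 0.45 in HP1a mutants (adjusted p = 0.00232), 1.71 in Setdb1 mutant larvae (0.00495) and 1.87 in Su(var)3-9 mutants (0.00193). The difference of 0.86 on the HP1a Pof-labelled arrays was not called (adjusted p = 0.111), but was called without array A of that group (1.24, adjusted p = 0.0467). The Setdb1 rise was 1.15 (adjusted p = 0.0533) without array C.

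Cpr76Bb rose too, by 1.47 in HP1a mutants, 1.45 in Setdb1 mutant larvae and 1.74 in Su(var)3-9 mutants. The 0.54 on the HP1a Pof-labelled arrays was not called (adjusted p = 0.264), and the Setdb1 rise was 0.84 (adjusted p = 0.077) without array C. Cpr76Bd stayed near log2 6 and was called in no mutant group against wildtype, with -0.22 in HP1a mutants, -0.22 on the HP1a Pof-labelled arrays, 0.00 in Setdb1 mutant larvae and 0.18 in Su(var)3-9 mutants. Without Su(var)3-9 array C the last of these was -0.018 (adjusted p = 0.895). The 3 genes lie next to each other, together with the untested Cpr76Bc.

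At 78C, Cpr78Cc rose in all groups, by 2.52 ± 0.36 in HP1a mutants, 2.41 on the HP1a Pof-labelled arrays, 2.34 in Setdb1 mutant larvae and 2.82 in Su(var)3-9 mutants. Cpr78Ca, which passed the filter through its 3 Su(var)3-9 arrays alone, was called in that group. In Su(var)3-9 mutants it read 6.30, 7.62 and 6.75, against 5.29, 5.49 and 5.74 in wildtype (1.39 ± 0.21, adjusted p = 3.33e-05). In the other mutant groups it read between 4.99 and 5.88, within or just outside the wildtype range, and its changes of -0.02 in HP1a mutants, -0.22 on the HP1a Pof-labelled arrays and 0.07 in Setdb1 mutant larvae were not called. Cpr78Cb was called in no group, with 0.58 in HP1a mutants, 0.41 on the HP1a Pof-labelled arrays, 0.78 in Setdb1 mutant larvae and 0.54 in Su(var)3-9 mutants, though its difference in Setdb1 mutant larvae was 1.10 (adjusted p = 0.0414) without Setdb1 array A. Edg78E and CG43702 lie between these Cpr genes.

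At 97E, Cpr97Ea rose by 1.98 ± 0.30 in HP1a mutants, 1.61 on the HP1a Pof-labelled arrays, 1.62 in Setdb1 mutant larvae and 2.11 in Su(var)3-9 mutants. Its neighbour Cpr97Eb read 6.15, 5.42 and 6.17 in HP1a mutants, 5.16, 5.21 and 5.16 on the HP1a Pof-labelled arrays, 5.49, 5.40 and 6.83 in Setdb1 mutant larvae and 6.94, 7.78 and 7.18 in Su(var)3-9 mutants, against 4.76, 4.89 and 4.95 in wildtype. Every mutant array was above every wildtype array, by little on the HP1a Pof-labelled arrays. No wildtype array reached log2 6, so Cpr97Eb passed the filter through mutant arrays and its rises are a description. The rises were 1.03 ± 0.26 (adjusted p = 0.00257) in HP1a mutants, 1.03 (0.00327) in Setdb1 mutant larvae and 2.42 (9.56e-07) in Su(var)3-9 mutants, and the 0.30 on the HP1a Pof-labelled arrays was not called (adjusted p = 0.324).

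Among the genes with no other tested Cpr gene at their map position, Cpr100A, Cpr5C and Cpr23B rose by 2.8 or more in all 4 groups. Cpr100A read 11.38, 10.14 and 11.52 in HP1a mutants, 9.58, 9.73 and 11.18 on the HP1a Pof-labelled arrays, 10.48, 9.83 and 11.72 in Setdb1 mutant larvae and 10.70, 10.96 and 11.0 in Su(var)3-9 mutants, against 6.26, 7.42 and 8.08 in wildtype. The changes were 3.67 ± 0.46 (adjusted p = 5.97e-06) in HP1a mutants, 2.83 (7.05e-05) on the HP1a Pof-labelled arrays, 3.34 (2.45e-05) in Setdb1 mutant larvae and 3.55 (7.91e-06) in Su(var)3-9 mutants. No mutant array overlapped wildtype.

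Cpr5C, on the X chromosome, read 10.64, 10.35 and 11.59 in HP1a mutants and 10.03, 10.35 and 10.92 in Su(var)3-9 mutants, against 6.18, 7.33 and 8.03 in wildtype. It rose by 3.65 ± 0.50 in HP1a mutants, 3.17 on the HP1a Pof-labelled arrays, 3.50 in Setdb1 mutant larvae and 3.22 in Su(var)3-9 mutants. Cpr23B read 8.83, 10.54 and 10.58 in HP1a mutants and 10.58, 10.46 and 10.84 in Setdb1 mutant larvae, against 6.01, 6.97 and 7.45 in wildtype, and it rose by 3.13 ± 0.41 in HP1a mutants, 3.53 on the HP1a Pof-labelled arrays, 3.77 in Setdb1 mutant larvae and 2.95 in Su(var)3-9 mutants. For both genes the mutant arrays were apart from wildtype in every group. Cpr30F, Cpr31A, Cpr50Cb, Cpr51A, Cpr56F, Cpr66Cb and Cpr66D also rose in all 4 groups. Their changes ran from 1.08 for Cpr66Cb to 3.33 for Cpr50Cb in HP1a mutants and from 1.14 for Cpr66Cb to 3.19 for Cpr50Cb in Su(var)3-9 mutants.

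Cpr35B and Cpr11B were called in some groups. Cpr35B rose by 1.11 in Setdb1 mutant larvae (adjusted p = 0.0209) and by 1.28 in Su(var)3-9 mutants (0.00725), and its 0.83 in HP1a mutants was not called (0.0656). With the replicate block the HP1a difference of Cpr35B was 0.85 (adjusted p = 0.0479). Without Setdb1 array C its Setdb1 rise was 0.84 (adjusted p = 0.123), and without Su(var)3-9 array B its rise there was 1.02 (0.0518). Cpr11A was called in no group, with 0.42 in HP1a mutants (adjusted p = 0.0507), and it passed the threshold there without wildtype A, B or C.

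Among the mutant groups the means of Cpr60D lay farthest apart. It read 9.39, 8.58 and 10.04 in HP1a mutants, 6.44, 7.01 and 8.35 on the HP1a Pof-labelled arrays, 7.27, 8.46 and 9.90 in Setdb1 mutant larvae and 10.44, 11.13 and 11.13 in Su(var)3-9 mutants, against 6.47, 7.39 and 8.42 in wildtype. The HP1a and Su(var)3-9 arrays were all above wildtype, and the other mutant groups overlapped it. It rose by 1.93 ± 0.53 in HP1a mutants (adjusted p = 0.00516) and by 3.49 in Su(var)3-9 mutants (3.36e-05), while the -0.14 on the HP1a Pof-labelled arrays (0.836) and the 1.14 in Setdb1 mutant larvae (0.0822) were not called. With the replicate block the Setdb1 difference was 1.12 (adjusted p = 0.0362), and it was also called without Setdb1 array A (1.78, 0.0144) or wildtype E (1.34, 0.0452).

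Lower signals were few. Cpr12A, on the X chromosome, read 7.28, 7.79 and 7.55 in HP1a mutants, 7.37, 7.40 and 7.01 on the HP1a Pof-labelled arrays, 7.32, 7.75 and 7.53 in Setdb1 mutant larvae and 7.97, 7.36 and 7.60 in Su(var)3-9 mutants, against 8.82, 9.05 and 9.28 in wildtype. All 12 mutant arrays were below all 6 wildtype arrays. The changes were -1.48 ± 0.15 (adjusted p = 5.49e-07) in HP1a mutants, -1.76 (6.79e-08) on the HP1a Pof-labelled arrays, -1.49 (9.44e-07) in Setdb1 mutant larvae and -1.38 (1.23e-06) in Su(var)3-9 mutants.

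Cpr67B, which lies apart from the 67F genes, read 10.19, 10.33 and 10.01 in HP1a mutants, 10.14, 9.94 and 9.29 on the HP1a Pof-labelled arrays, 10.07, 10.32 and 10.32 in Setdb1 mutant larvae and 10.52, 10.39 and 10.20 in Su(var)3-9 mutants, against 10.32, 10.67 and 10.86 in wildtype. It fell on the HP1a Pof-labelled arrays (-0.86, adjusted p = 0.000213) and less firmly elsewhere. In HP1a mutants the change of -0.47 ± 0.16 (adjusted p = 0.0179) lost its call without HP1a array C (-0.39, 0.089). In Setdb1 mutant larvae the change of -0.42 (adjusted p = 0.0383) lost its call without any 1 of the Setdb1 arrays or without wildtype B, C or E, and was -0.30 (0.108) when arrays were centred on their median gene. The -0.28 in Su(var)3-9 mutants was not called (adjusted p = 0.13).

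Cpr73D and Cpr78E sat near the lowest signals tested, and their falls were small. Cpr73D read 6.0, 5.64 and 5.94 in HP1a mutants, 5.53, 5.52 and 5.28 on the HP1a Pof-labelled arrays, 5.28, 5.35 and 5.66 in Setdb1 mutant larvae and 5.94, 5.77 and 5.75 in Su(var)3-9 mutants, against 5.79, 5.99 and 6.17 in wildtype, HP1a array A being just under the filter. It fell on the HP1a Pof-labelled arrays (-0.55 ± 0.11, adjusted p = 0.000498) and in Setdb1 mutant larvae (-0.57, 0.000565), where no array overlapped wildtype. Since only wildtype arrays brought Cpr73D past the filter, these falls are a description. Cpr78E changed by -0.17 ± 0.07 (adjusted p = 0.0348) in HP1a mutants, -0.22 (0.00935) on the HP1a Pof-labelled arrays and -0.18 (0.0253) in Su(var)3-9 mutants.

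The calls of Cpr78E were not stable. In HP1a mutants it was lost without HP1a B (-0.18, adjusted p = 0.0604) or HP1a C (-0.08, 0.292), without wildtype A, B, C or E, with centred arrays (-0.10, 0.22), and with the replicate block (-0.19, 0.0876). On the HP1a Pof-labelled arrays it was lost without array A (-0.18, 0.0546) and with centred arrays (-0.14, 0.1). In Su(var)3-9 mutants it was lost without array A (-0.15, 0.1) or array C (-0.18, 0.051), and centring arrays on their median gene turned the sign (0.044, adjusted p = 0.609).

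Set against HP1a mutants, Su(var)3-9 mutants had 6 Cpr genes called higher and 0 lower, where 11.9% and 28.2% of all tested genes were called. The 6 are 15% of the Cpr genes, near the 11.9% over all tested genes, so the genes below are given singly. At an unadjusted limma p under 0.05 there were 0 Cpr genes lower, where 34.8% of all genes were. Without Su(var)3-9 array C the count was 5 higher, the gene lost being Cpr76Bd. The median Cpr gene differed by 0.01 between these groups, with quartiles of -0.17 and 0.41, against -0.14 over all genes. Both comparisons of these groups with wildtype share the wildtype arrays, and this one shares the mutant arrays with them.

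The 6 genes were Cpr67Fa2, Cpr92F, Cpr97Eb, Cpr78Ca, Cpr11B and Cpr76Bd, of which Cpr11B was singled out after its values were seen. Cpr92F and Cpr78Ca entered the test through the 3 Su(var)3-9 arrays alone, so the filter itself chose them for being high in that group, and their calls there are a description. With array C left out before the filter neither was tested, and 3 genes were called higher: Cpr67Fa2, Cpr97Eb and Cpr11B. Cpr97Eb had no wildtype array at log2 6 and entered through mutant arrays, so its call is a description too. Cpr92F read 6.29, 8.28 and 7.19 in Su(var)3-9 mutants, against 5.72, 4.66 and 5.50 in HP1a mutants, with 4.12 to 4.29 in wildtype. The Su(var)3-9 arrays were above all others, but spread over 2 log2 units. The difference was 1.96 ± 0.39 (adjusted p = 0.0016), and 1.99 (0.00705) without array C. Against wildtype Cpr92F rose by 3.04 in Su(var)3-9 mutants (adjusted p = 1.66e-06) and by 1.08 ± 0.34 in HP1a mutants (0.0125). The HP1a call was lost with the replicate block (1.08, adjusted p = 0.0556) and without HP1a A (0.86, 0.0744) or HP1a C (0.97, 0.0542).

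Cpr67Fa2 was higher in Su(var)3-9 mutants than in HP1a mutants by 1.72 ± 0.38 (adjusted p = 0.00286), and by 1.67 (0.0147) without array C. On the probe set shared with Cpr67Fa1 the arrays of these groups overlapped. Cpr78Ca was higher by 1.42 ± 0.24 (adjusted p = 0.000542) and Cpr97Eb by 1.39 ± 0.30 (0.00238). Without array C these were 1.49 (0.00209) and 1.45 (0.0084) with the genes tested kept as they were. Cpr11B read 9.72, 9.64 and 9.46 in Su(var)3-9 mutants, against 9.12, 8.31 and 8.61 in HP1a mutants, with 7.79 to 8.39 in wildtype. It was higher by 0.93 ± 0.21 (adjusted p = 0.00391). Against wildtype Cpr11B rose by 1.48 ± 0.19 in Su(var)3-9 mutants (adjusted p = 5.37e-06), by 0.95 in Setdb1 mutant larvae (0.000519) and by 0.55 in HP1a mutants (0.018). The HP1a rise lost its call without HP1a A (0.33, 0.154) and with the replicate block (0.44, 0.121). The 0.30 on the HP1a Pof-labelled arrays was not called (0.17).

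Cpr76Bd read 6.30, 6.23 and 6.86 in Su(var)3-9 mutants, against 6.03, 6.21 and 5.95 in HP1a mutants. Its difference of 0.40 ± 0.14 (adjusted p = 0.0393) lost its call without Su(var)3-9 C (0.20, 0.243), HP1a A (0.38, 0.0904) or HP1a C (0.34, 0.119). Cpr60D was 1.56 ± 0.61 higher in Su(var)3-9 mutants but not called (adjusted p = 0.0522). It was called without Su(var)3-9 array A (1.79, 0.0452) or HP1a array C (1.92, 0.0386), and was 1.45 (0.15) without Su(var)3-9 array C.

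**Figure D5:**
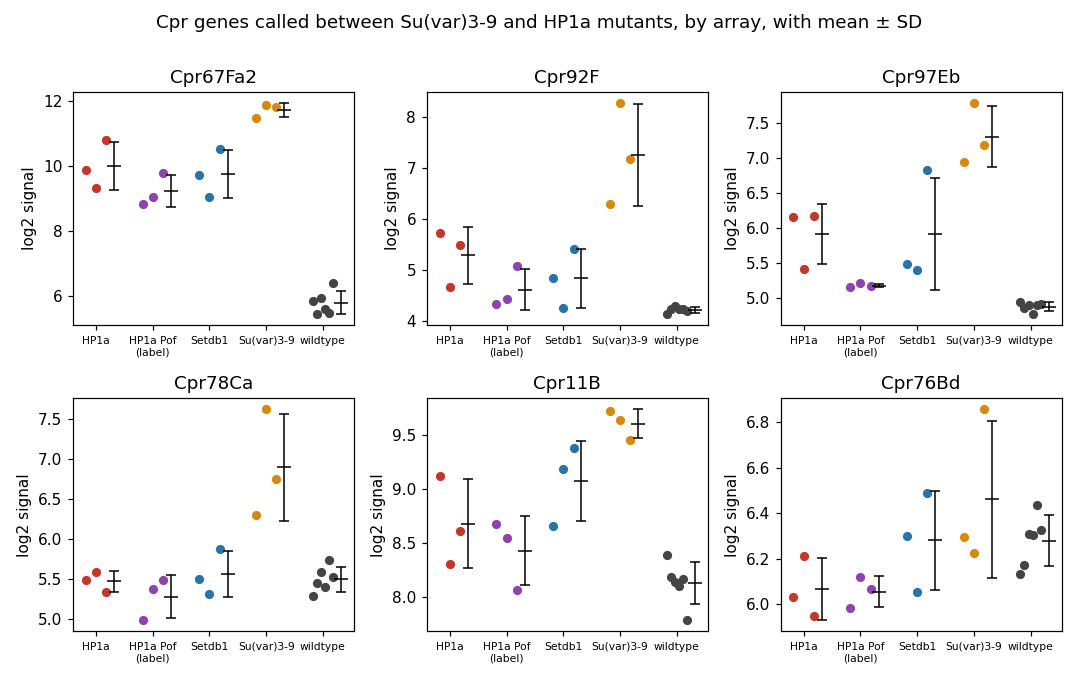
Log2 signal by array, with mean ± SD per group, of the 6 Cpr genes called higher in Su(var)3-9 mutants than in HP1a mutants; mutant groups stand left of wildtype. For Cpr67Fa2, Cpr92F, Cpr97Eb, Cpr78Ca and Cpr11B the Su(var)3-9 arrays are above those of all other groups, and for Cpr76Bd array C alone is.

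Between Setdb1 mutant larvae and HP1a mutants 0 Cpr genes were called higher and 1 lower, where 10.0% and 8.44% of all tested genes were. The median SD was 0.571 and 0.504 for Cpr genes in these groups, against 0.152 and 0.151 over all tested genes. A difference of equal size is thus harder to call in Cpr genes, so the shares are not like for like. The same limit holds for the other comparisons with HP1a mutants. At an unadjusted limma p under 0.05 there were 3 Cpr genes higher, where 15.9% of all genes were. The gene called lower was Cpr73D (-0.43 ± 0.13, adjusted p = 0.032), and its call was lost without HP1a A (-0.36, 0.124), HP1a C (-0.39, 0.088), Setdb1 A (-0.35, 0.0999) or Setdb1 B (-0.39, 0.116). All its arrays in both groups were under log2 6 and the groups overlapped, and it was tested only through wildtype arrays. With the replicate block 2 genes were called higher: Cpr64Ab by 1.05 (adjusted p = 0.0132, against 0.139 without the block) and Cpr67Fb by 1.28 (0.045, against 0.274).

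The HP1a Pof-labelled arrays had 0 Cpr genes called higher and 0 called lower than HP1a mutants, where 0.244% and 0.487% of all tested genes were called by limma. At an unadjusted p under 0.05 there were 0 higher and 3 lower, where 2.45% and 4.34% of all genes were. The median Cpr gene differed by -0.26, against 0.01 over all genes. The largest difference was that of Cpr60D, whose arrays did not overlap between these groups (-2.07 ± 0.61, adjusted p = 0.225), and with the replicate block it was called (-2.07, adjusted p = 0.0416).

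Other cuticle protein genes were higher in the same mutants. Of 45 tested genes of the Lcp, Ccp, Twdl and related families and of the Cpr47E and Cpr49A groups, 32 were called higher and 3 lower in HP1a mutants, 30 and 4 on the HP1a Pof-labelled arrays, 34 and 3 in Setdb1 mutant larvae and 37 and 4 in Su(var)3-9 mutants (38 and 4 without array C). For this and the lists below, the shares over all tested genes were 23.5% higher and 35.6% lower in HP1a mutants, 25.0% and 35.8% on the HP1a Pof-labelled arrays, 17.3% and 35.2% in Setdb1 mutant larvae and 16.3% and 47.6% in Su(var)3-9 mutants. This list, like the others named here, was made with earlier results of these data known. Lcp65Ad, a larval cuticle protein gene that lies among the 65A Cpr genes, rose by 3.37 ± 0.52 in HP1a mutants, and TwdlE, of the Tweedle cuticle protein family, by 2.68 ± 0.41. The 3 called lower in HP1a mutants were Cpr47Ed (-2.82), Cpr49Ac (-1.38) and Cpr49Ag (-0.59).

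Of 26 tested genes of the chitin matrix, 19 were called higher and 4 lower in HP1a mutants, 18 and 3 on the HP1a Pof-labelled arrays, 18 and 4 in Setdb1 mutant larvae and 17 and 4 in Su(var)3-9 mutants, also without array C. In HP1a mutants 23.5% and 35.6% of all tested genes were called higher and lower. The higher ones included kkv, the cuticle chitin synthase (0.86 in HP1a mutants and 0.60 in Su(var)3-9 mutants), verm, a chitin deacetylase (2.76 and 2.67), and obst-E, a chitin-binding protein that shapes the larval cuticle (2.62 and 2.96). Among chitinases Cht6 and Cht7 rose in all 4 groups, while Cht9 fell (-3.14 in HP1a mutants, -1.72 in Su(var)3-9 mutants), as did Cht4 (-2.31 in HP1a mutants) and Cht10 (-2.02).

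Of 12 tested genes of ecdysone synthesis and response, 4 were called higher and 3 lower in HP1a mutants, 3 and 2 on the HP1a Pof-labelled arrays, 2 and 4 in Setdb1 mutant larvae and 4 and 5 in Su(var)3-9 mutants (6 and 5 without array C). In HP1a mutants the 4 and 3 of 12 stand beside 23.5% and 35.6% of all tested genes, shares they are near. In Su(var)3-9 mutants the 4 and 5 of 12 stand beside 16.3% and 47.6%. With only 12 genes, no difference from these shares is read here. No such share is given for the counts without array C. EcR, the ecdysone receptor, rose by 1.21 in HP1a mutants and by 0.82 in Su(var)3-9 mutants. Hr3, a nuclear receptor of the ecdysone response, changed by -0.59 in HP1a mutants, -0.99 in Setdb1 mutant larvae and -1.27 in Su(var)3-9 mutants, and its -0.34 on the HP1a Pof-labelled arrays was not called.

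Markers of cell types were counted in the same way. Of 8 tested markers of epidermis and trachea, 5 were called higher in HP1a mutants, 6 on the HP1a Pof-labelled arrays, 5 in Setdb1 mutant larvae and 4 in Su(var)3-9 mutants, and 2 were called lower in each group. The median marker changed by 0.62 in HP1a mutants, 0.95 on the HP1a Pof-labelled arrays, 0.51 in Setdb1 mutant larvae and 0.29 in Su(var)3-9 mutants. Their mean log2 signal per array was 9.25 to 9.74 in HP1a mutants, 9.48 to 9.92 on the HP1a Pof-labelled arrays, 9.43 to 9.58 in Setdb1 mutant larvae and 9.04 to 9.39 in Su(var)3-9 mutants, against 8.75 to 8.97 in wildtype. Of these markers kkv, verm, serp and Gasp belong to the chitin list too, while sha and btl fell. Of 7 tested midgut markers 5 were called lower in HP1a mutants, 6 on the HP1a Pof-labelled arrays, 3 in Setdb1 mutant larvae and 5 in Su(var)3-9 mutants, and 1 was called higher in each group, where 35.2% to 47.6% of all tested genes were called lower. Their mean was 10.08 to 10.23 in HP1a mutants, 9.85 to 10.13 on the HP1a Pof-labelled arrays, 10.08 to 10.37 in Setdb1 mutant larvae and 10.41 to 10.85 in Su(var)3-9 mutants, against 10.88 to 11.03 in wildtype. Of 3 tested muscle markers 2 were called lower in HP1a mutants and 0 in the other groups. Of 5 tested neuron markers 2 were called higher in HP1a mutants, 3 on the HP1a Pof-labelled arrays and 1 each in the other groups, while 1 was called lower in Setdb1 mutant larvae and 2 in Su(var)3-9 mutants. Of 4 tested haemocyte markers 3 were called lower in the first 3 mutant groups and 2 in Su(var)3-9 mutants, and 1 was called higher in each group but the HP1a Pof-labelled arrays. The counts of these cell type markers in Su(var)3-9 mutants were the same without array C. The part of cell composition in the Cpr results was not tested.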

How the data were processed

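The authors deposited log2 signals per probe set that RMA had made, per the submitters' processing notes. The sources used here name neither its version and settings nor a build. The values were used unchanged. Of 18952 probe sets, 13647 were annotated to 1 gene; the probe set with the highest mean stood for its gene. No detection calls were used, and the number of arrays limits the precision.

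Groups came from the labels. limma 3.58.1 in R 4.3.3 was fitted over the 8211 genes at log2 6 or more on at least 3 arrays, with all 5 groups in 1 model (13 residual degrees of freedom) and p-values adjusted by Benjamini and Hochberg over all genes in each of 7 comparisons. The script was tested on simulated data. Genes, arms and neighbours were named from RefSeq (Release 6 plus ISO1 MT); sequences and coordinates were not used here.

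Same-lettered arrays deviated together from their group means in 5 comparisons (lowest correlation 0.133). The labels name no batch behind the letters, so whether they pair the samples is not known here, and the replicate block is an alternative fit. For Su(var)3-9 mutants they did not deviate together at every letter (lowest correlation 0.029 against wildtype and -0.054 against HP1a mutants). The block has no letters D to F outside wildtype.

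Members and lists were chosen with earlier results of these data known. Members named with values were the highest and lowest mean change of each map position with 3 or more tested genes, the 4 largest rises and falls without overlap in each comparison, and every gene called lower than wildtype; others are singled out by their calls or given by range. The alternatives were the mean of probe sets (each member has 1, so nothing changes but the other genes), a filter at log2 8 or none, centring, array weights, a robust trend, fits of 2 groups, wildtype arrays A to C alone, the replicate block and leaving out each array.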

Additional observations from a re-analysis of the deposited data

Results flagged for a closer look

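Among the 40 Cpr genes, wildtype array E stood apart from the other 5 wildtype arrays in Cpr76Bb, where it read 7.34 and the gap to the nearest other array was 0.664 of the whole range. By the test used, chance alone marks about 1 in 20 groups, and 1 of 40 was marked.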

How the results depend on the processing

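Of 236 recomputed counts of called Cpr genes, 210 stayed within 1.5 times the reported count. The counts of genes called higher than wildtype all did: leaving out 1 array gave 27 to 30 in HP1a mutants, 20 to 25 on the HP1a Pof-labelled arrays, 26 to 31 in Setdb1 mutant larvae and 31 to 32 in Su(var)3-9 mutants. Counts of lower genes, which are small, moved. With no filter they were 5 in HP1a mutants and 7 on the HP1a Pof-labelled arrays, and with the filter at log2 8 the count there was 2. Leaving out 1 array gave 1 to 3 in HP1a mutants (1 without HP1a C). In Su(var)3-9 mutants the count was 4 with array weights and 1 with the filter at log2 8, with centred arrays, with the replicate block, with wildtype arrays A to C alone, without Su(var)3-9 arrays B and C, or with array C left out before the filter, the last 2 chosen after seeing the data; leaving out 1 array gave 1 to 2 (1 without A or C). Against HP1a mutants, the HP1a Pof-labelled arrays had 1 lower with array weights or the replicate block. Setdb1 mutant larvae had 2 higher with the replicate block and 0 lower with the filter at log2 8 or with 2 groups in the model; leaving out 1 array gave 0 to 1 higher (1 without HP1a B) and 0 to 1 lower. Su(var)3-9 mutants had 2 higher with the filter at log2 8, 1 without arrays B and C and 3 with array C left out before the filter, and leaving out 1 array gave 5 to 8. For Su(var)3-9 mutants same-lettered arrays did not deviate together at every letter. With the letter as a replicate block there, 31 Cpr genes were higher than wildtype and 8 higher than in HP1a mutants. The replicate block changed no other count of calls by over 1.5 times. Of the changes of single genes 4524 stayed on their side of the threshold, 71 lost the call, 64 gained it, and 1 reversed: Cpr78E in Su(var)3-9 mutants with centred arrays (0.044). Where no value here shows it, the cause was not tested. Signal over background limits Cpr64Ac, Cpr65Aw, Cpr67Fa2, Cpr73D, Cpr76Ba, Cpr76Bd, Cpr78Ca, Cpr78E, Cpr92F, Cpr97Ea and Cpr97Eb, which read near or below log2 6 in wildtype.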

Other observations

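A probe set annotated to both Cpr65Ax1 and Cpr65Ax2, cuticle protein genes of the 65A group, was outside the tests because it reads more than 1 gene. It gave some of the highest Cpr signals of the series, 13.97, 13.54 and 13.93 in HP1a mutants, 13.67, 13.51 and 13.75 on the HP1a Pof-labelled arrays, 13.46, 13.40 and 13.83 in Setdb1 mutant larvae and 13.93, 13.93 and 13.78 in Su(var)3-9 mutants, with a wildtype range of 11.57 to 12.54. All 12 mutant arrays were above all 6 wildtype arrays. A probe set annotated to both Cpr57A and Obp57d, an odorant-binding protein gene, read 10.14, 10.38 and 10.31 in Su(var)3-9 mutants, with a wildtype range of 8.71 to 9.28, and which of the genes it read is not known here. These values were not tested.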
